A study of Mus with 12 samples.

Results

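The transcript assembly of the mouse uterus at early pregnancy held 87235 rows, and 34077 of these rows carried no Ensembl transcript. Among the unannotated rows, 22436 lay wholly within the span of a protein-coding row that did carry one, and these loci inside coding genes are described here. The other 11641 unannotated rows were not wholly inside a coding row. A coding row that holds a locus is called its host, and where several coding rows held a locus the shortest was taken. Of 21044 protein-coding rows, 5704 were hosts.

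Pregnant ICR mice, an outbred strain, were used. The design text gives their age as 8 weeks, and by the study's methods they were slightly older than that when mated. RNA of the uterus was sequenced in paired-end libraries, which the labels describe as poly(A)-selected and the study's methods as depleted of ribosomal RNA. The library type was not settled here, and it sets how much RNA without a poly(A) tail the loci can hold. Libraries were made from 3 mice at E0.5, 3 at E4.5, 3 at E15.5 and 3 at E18.5, with no agent or allele that differs between the groups. The question of the comparison between E0.5 and E4.5 is which transcripts of the uterus differ between a day soon after mating and the day around embryo attachment. Only the table of E0.5 and E4.5 gives positions, so the loci were compared between these days, as log2 fold changes of E0.5 relative to E4.5, where a positive value is higher at E0.5.

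A read from a uterine RNA can fall outside every known transcript and still lie inside a known gene. Assemblers join such reads into new loci, which may come from retained or unspliced introns, from unannotated exons and ends of the host transcript, from RNAs of the opposite strand (natural antisense transcripts), or from independent genes nested in an intron. Long noncoding RNAs are often annotated in such places, and intronic and antisense loci are classes that lncRNA catalogues keep apart. The assembler gives a strand mainly where spliced reads or a strand-marking kit show it, and no source used here names such a kit, so reads of a locus cannot be told apart from reads of a gene that overlaps it on the other strand.

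By strand, 2275 loci (10.1%) lay on the strand of the host, 3842 (17.1%) on the opposite strand, and 16319 (72.7%) had no strand in the table. The loci without a strand were short, with a median span of 446 bases, and every one of them was a single block, that is, its assembled length was at least 0.95 of its span. Length was scaled on strandless rows taken as single blocks, so their typical ratio of length to span was set in advance. Loci with a strand spanned a median of 2555 bases on the host strand and 2960 bases on the opposite strand, and 72.2% and 75.1% of them were single blocks. The table did not give the exons of the loci, so exonic and intronic positions were not analysed here. The median level over the 6 libraries was 1.14 FPKM (fragment counts scaled by transcript length and sequencing depth) without a strand, 2.24 FPKM on the host strand and 2.35 FPKM on the opposite strand. Per length, the level of a locus was a median of 0.748 of the level of its host, and 7225 of 22331 tested loci (32.4%) stood above their host.

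Host genes were long. The median span of a host row was 57.35 kb, against 11.48 kb for the 15340 coding rows that held no locus. A single locus was found in 2470 hosts, the median was 2, and the Fhit row (a tumour suppressor gene at a fragile site) held 224. The loci lay more often in the upstream part of the host: with the host cut into 10 equal bins from its 5′ end, 12.9% were centred in bin 1 and 13.3% in bin 2, against 7.57% in bin 9 and 5.01% in bin 10. This slope was seen in all 3 strand classes, although the opposite-strand loci were fewer in bin 1 (11.2%) than in bin 2 (14.1%). Only 391 loci lay in more than 1 coding row, and for 2715 loci (12.1%) the host row merged several genes.

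**Figure D1:**
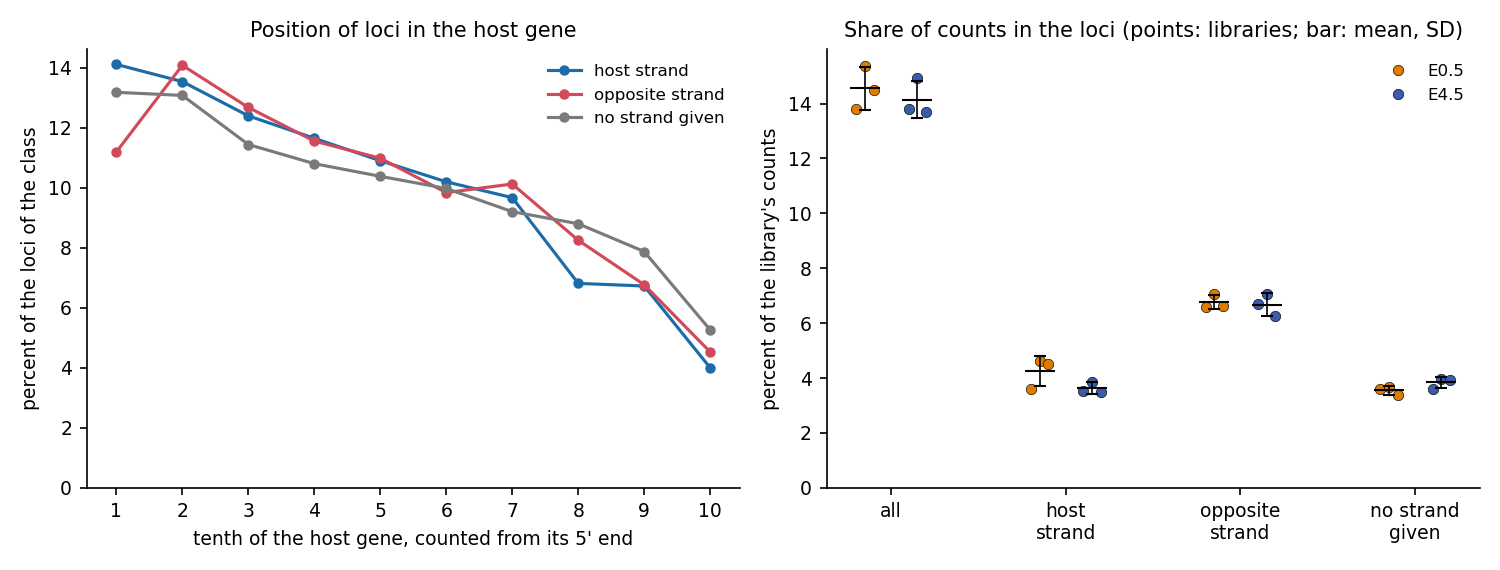
Left, the percentage of loci centred in each of 10 equal bins of the host gene, counted from its 5′ end, for the 3 strand classes; bin 10 holds the fewest in each class. Right, the percentage of each library's counts that fell in the loci (points, 3 libraries a day; bars, mean and SD), about 14% on both days.

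Total counts ran from 58020989 to 70906881 per library. Uterine markers were present: summed smooth muscle markers (Acta2, Myh11, Cnn1, Des and Tagln) were between 656 and 978 FPKM in 5 libraries. E4.5 replicate 3 stood apart, with 172 FPKM of the smooth muscle markers, and all 5 ovary markers were highest in it, at a sum of 694.9 FPKM against 3.59 to 5.88 FPKM elsewhere (Star, which carries cholesterol into mitochondria, and Cyp11a1, an enzyme of steroid synthesis, led the sum). Both oviduct markers were also highest there, at 79.4 FPKM against 3.63 to 14.8. E0.5 replicate 1 had 33.3 FPKM of the fat markers against 12.1 and 11.7 in the other E0.5 libraries. Over the loci, the Spearman correlation of E4.5 replicate 3 with the other E4.5 libraries was 0.806 and 0.801, against 0.901 between those. Counts were therefore also made without both of these libraries, and in whole-uterus RNA a change in the number of cells of a type cannot be told apart from a change in RNA per cell.

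As a whole, the loci took shares of the sequencing on the 2 days that could not be told apart. They held 14.6 ± 0.783% of the counts at E0.5 and 14.1 ± 0.676% at E4.5 (SD, n = 3; exact two-sided permutation test, p = 0.6, with 0.1 the smallest p that 3 against 3 libraries allow). Opposite-strand loci held 6.77 ± 0.260% and 6.68 ± 0.409% (exact permutation p = 1). Host-strand loci held 4.25 ± 0.549% and 3.63 ± 0.210% (exact permutation p = 0.2), and loci without a strand held 3.55 ± 0.164% and 3.84 ± 0.213% (exact permutation p = 0.3). None of these differences reached the smallest p of the design.

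Single loci did differ between the days. By the study's criterion, a log2 fold change of 1 or more in either direction with an unadjusted p under 0.05 (edgeR's quasi-likelihood test), 2552 of 22331 tested loci were called, 1327 higher and 1225 lower at E0.5. This is 11.4% of the loci, against a background of 12.2% over all 59732 tested rows, 14.6% over protein-coding rows and 14.2% over unannotated rows outside coding genes. By direction, the backgrounds over all rows were 6.37% higher and 5.82% lower, and those over the unannotated rows outside coding genes were 9.43% higher and 4.73% lower. Loci on the host strand were called in 13.6%, opposite-strand loci in 13.0% and loci without a strand in 10.8%. The median log2 fold change was 0.05 over the loci, -0.01 over all tested rows, and 0.39 over the unannotated rows outside coding genes. The share of called loci thus lay near or below the background, and the 2 classes with a strand lay slightly above the share of all rows.

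With the Benjamini-Hochberg adjustment over all 59732 rows, 147 loci passed an adjusted p under 0.05, 94 higher and 53 lower at E0.5 (0.658%, against 1.22% of all rows, 2.94% of protein-coding rows and 0.869% of unannotated rows outside coding genes). The backgrounds by direction were 0.763% higher and 0.459% lower. Among the 147 were 26 host-strand, 52 opposite-strand and 69 strandless loci. None of the 3583 loci with a mean under 20 counts passed, although 304 of them met the study's criterion, against 58 of 2031 with more than 1000 counts. Leaving out E4.5 replicate 3 raised the number to 1057 (background 6.08%), which held all 147, while leaving out any other single library lowered it to between 0 and 33. Without both doubted libraries 607 passed (background 3.84%), among them 131 of the 147, and DESeq2 passed 1813 (background 9.74%), with all 147 among them. The 3 values of E0.5 and of E4.5 did not overlap for 5118 loci (22.9%, against 25.2% of all tested rows).

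The change of a locus went with the change of its host. Over 22028 pairs with both tested, the Spearman correlation between the log2 fold changes was 0.595, and it was 0.693 on the host strand, 0.717 on the opposite strand and 0.575 without a strand. Pairs share their libraries, and the sources used here do not state how a read inside both rows was assigned, so these values are descriptions. The signs were the same in 70.8% of the pairs. Of 2507 called loci with a tested host, 1438 (57.4%) had a host called in the same direction by the same criterion and 10 had a host called in the opposite one. Over all tested protein-coding rows, hosts or not, 14.6% were called in either direction. The share of uncalled loci with a called host was not computed. Loci of 1 host had similar values: the SD of the log2 fold change within a host had a median of 0.356 over 697 hosts with at least 5 loci of 50 counts or more. The SD over all 13062 loci of 50 counts or more, in any host, was 1.37. A pooled SD weighs extreme values more than a median of SDs does, so these are unlike measures. Among 431 hosts with at least 2 called loci, 403 had all of them in 1 direction and 28 had both.

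**Figure D2:**
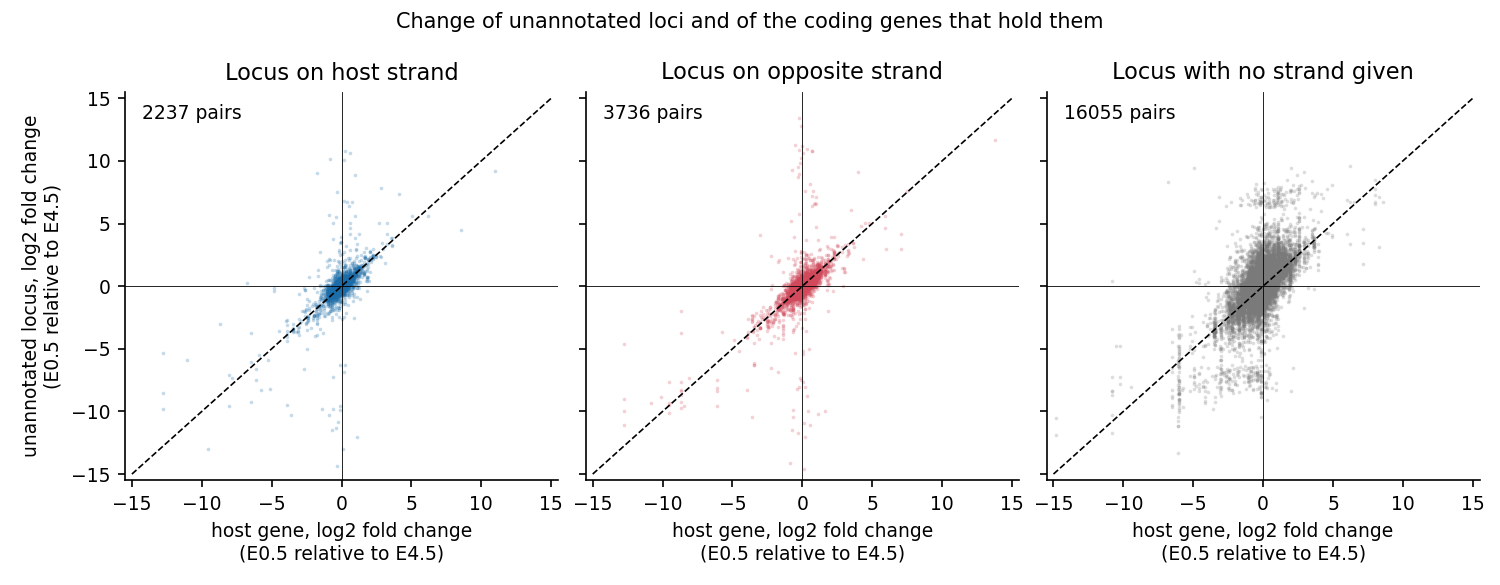
Log2 fold change of each locus (vertical axis) against that of its host gene (horizontal axis), both E0.5 relative to E4.5, in 3 panels by strand, with the line of equal change dashed. Points gather along the line; the streaks near a host value of 0 are mostly loci with few or no counts on 1 day, whose fitted values depend on the small count that edgeR adds.

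When the ratio of locus to host was tested in each library (limma on log2 ratios, Benjamini-Hochberg over 21436 pairs), 11 pairs passed an adjusted p under 0.05 (0.0513% of all pairs), 6 with the locus above the change of its host and 5 below, and 1631 (7.61%) had an unadjusted p under 0.05. The difference from the host was under 1 on the log2 scale in 86.8% of host-strand pairs, 89.5% of opposite-strand pairs and 72.0% of strandless pairs. No pair passed without both doubted libraries, and none without E0.5 replicate 2 or E0.5 replicate 3 (1608, 1616 and 1733 pairs at an unadjusted p under 0.05), so the pairs below are given with their counts. In 8 of the 11 pairs the locus had 0 counts in all libraries of 1 day, where its ratio rests on the 0.5 counts added, so these p-values are no measure of its spread. Leaving out E0.5 replicate 1, E4.5 replicate 1, E4.5 replicate 2 and E4.5 replicate 3 gave 2, 4, 1 and 19 pairs.

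Phactr2, a regulator of protein phosphatase and actin, held 7 loci, and the 6 within 72 kb of its 5′ end were called higher at E0.5, 4 of them by adjusted p. Host-strand locus MSTRG.6572 (chromosome 10, from 13464962 to 13469301) counted 2119, 1194 and 1277 at E0.5 against 52, 57 and 34 at E4.5. Its log2 fold change was 5.01 (standard error 0.35, edgeR adjusted p = 0.00749, passing in 5 of 6 fits without 1 library). Opposite-strand locus MSTRG.6571, whose span holds that of MSTRG.6572, had 2.58 (edgeR adjusted p = 0.0553), and reads of the 2 cannot be told apart without strand. The 4 loci farther inward that were called, all without a strand, had log2 fold changes between 2.36 and 3.21, and MSTRG.6567, the farthest of these, counted 8386, 5271 and 6006 against 845, 935 and 563. By contrast, the locus 194 kb from the 5′ end had a value of 0.40, and the Phactr2 row had 0.63 with an adjusted p of 0.270 (0.95 and 0.0128 from edgeR without E4.5 replicate 3). The 6 called loci stood above the host, but none of these differences passed the adjusted ratio test, the lowest adjusted p being 0.134.

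Runx1, a transcription factor of blood formation, held 6 loci, all on the opposite strand. The 4 within 72 kb of its 5′ end were higher at E0.5 by adjusted p, with log2 fold changes from 2.04 to 2.57. Among them MSTRG.25339 counted 2106, 2091 and 1655 at E0.5 and 395, 280 and 381 at E4.5, and MSTRG.25338 counted 1210, 987 and 1002 against 219, 121 and 205. The second of these matches the RefSeq lncRNA Gm30281 (reciprocal overlap of at least 50%). The other loci, 133 and 171 kb from the 5′ end, had values of 0.24 and 0.39. The Runx1 row counted 3945, 3217 and 2496 against 3013, 2858 and 2517, which overlap, with a log2 fold change of 0.23. The ratio of the 4 loci to Runx1 differed by 1.82 to 2.41 on the log2 scale and did not pass the adjusted test.

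In Bcl2, the inhibitor of apoptosis, the opposite-strand locus MSTRG.4276 (chromosome 1, from 106553594 to 106642154) counted 4733, 2945 and 4225 at E0.5 and 753, 741 and 888 at E4.5, which gave 2.33 on the log2 scale (standard error 0.19, edgeR adjusted p = 0.0103). The Bcl2 row had 1.34, and the 6 loci of the host strand or without a strand had 0.947 to 1.501, none with an adjusted p under 0.05. The difference of 0.85 from the host was within error (adjusted p = 0.762, limma ratio test).

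Further loci with larger values than their host were short and without a strand. In Trim2, a ubiquitin ligase, MSTRG.38296 counted 409, 227 and 263 at E0.5 against 27, 15 and 14 at E4.5, or 3.99 on the log2 scale (edgeR adjusted p = 0.0214) where the host had 0.43, and the difference did not pass the ratio test (limma adjusted p = 0.193). In Lmo7, a protein of cell junctions, MSTRG.21333 counted 134, 145 and 165 against 7, 11 and 20, a difference of 3.92 from the host (limma adjusted p = 0.0470). In Me3, the mitochondrial malic enzyme, MSTRG.54168 counted 99, 75 and 98 against 4, 4 and 9, a log2 fold change of 3.99 beside 0.71 for the host (limma adjusted p = 0.410 for the difference). The Me3 row counted 755, 999 and 1498 against 240, 253 and 1550, and without E4.5 replicate 3 it had 2.15 (edgeR adjusted p = 0.0159). The groups did not overlap in any of the 3 loci. In Plekha6 the host itself was higher at E0.5 (2.90, adjusted p = 0.0131), and MSTRG.4745 counted 50, 84 and 70 at E0.5 and 0 in all E4.5 libraries. That is at least 68.8-fold higher, taking 3 counts over the 3 libraries as the limit of a count of 0.

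Rbms3, which encodes an RNA-binding protein of the c-Myc single-strand binding family, showed loci below their host over a long stretch. It held 50 loci, and all 37 within 400 kb of the 5′ end had no strand. Of these 37, 36 had negative fitted values and 31 were called lower at E0.5, while none of the 13 loci farther in was called. The 30 loci between the outermost of those with no count at E0.5 and counts in every E4.5 library, over 267.55 kb, summed to 37, 74 and 79 counts at E0.5 and 2704, 3125 and 324 at E4.5. E4.5 replicate 3 was by far the lowest of its group, although still above the E0.5 libraries. In contrast, the 13 loci from 663 kb onward, 12 of them on the opposite strand, summed to 14670, 14288 and 15031 at E0.5 and 15530, 17535 and 8215 at E4.5, with log2 fold changes between -0.41 and 0.62. The Rbms3 row had -0.13 (13110, 12113 and 13007 against 13919, 19067 and 9397).

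Within the 400 kb stretch, 17 loci had no count in any E0.5 library. MSTRG.62142 was the deepest of these, with 252, 248 and 35 counts at E4.5, and was lower at E0.5 by at least 176-fold with the same limit. It was 1 of 4 Rbms3 loci among the ratio calls that rest on the added counts; the others, MSTRG.62134, MSTRG.62139 and MSTRG.62143, had at most 89 counts in a library at E4.5. None of the 50 loci passed the adjusted p of edgeR, but 19 did without E4.5 replicate 3. Without both doubted libraries 35 of the 37 were called by the study's criterion, against 13.5% of all tested rows in that setting. Both stretches were chosen after its values were seen.

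**Figure D3:**
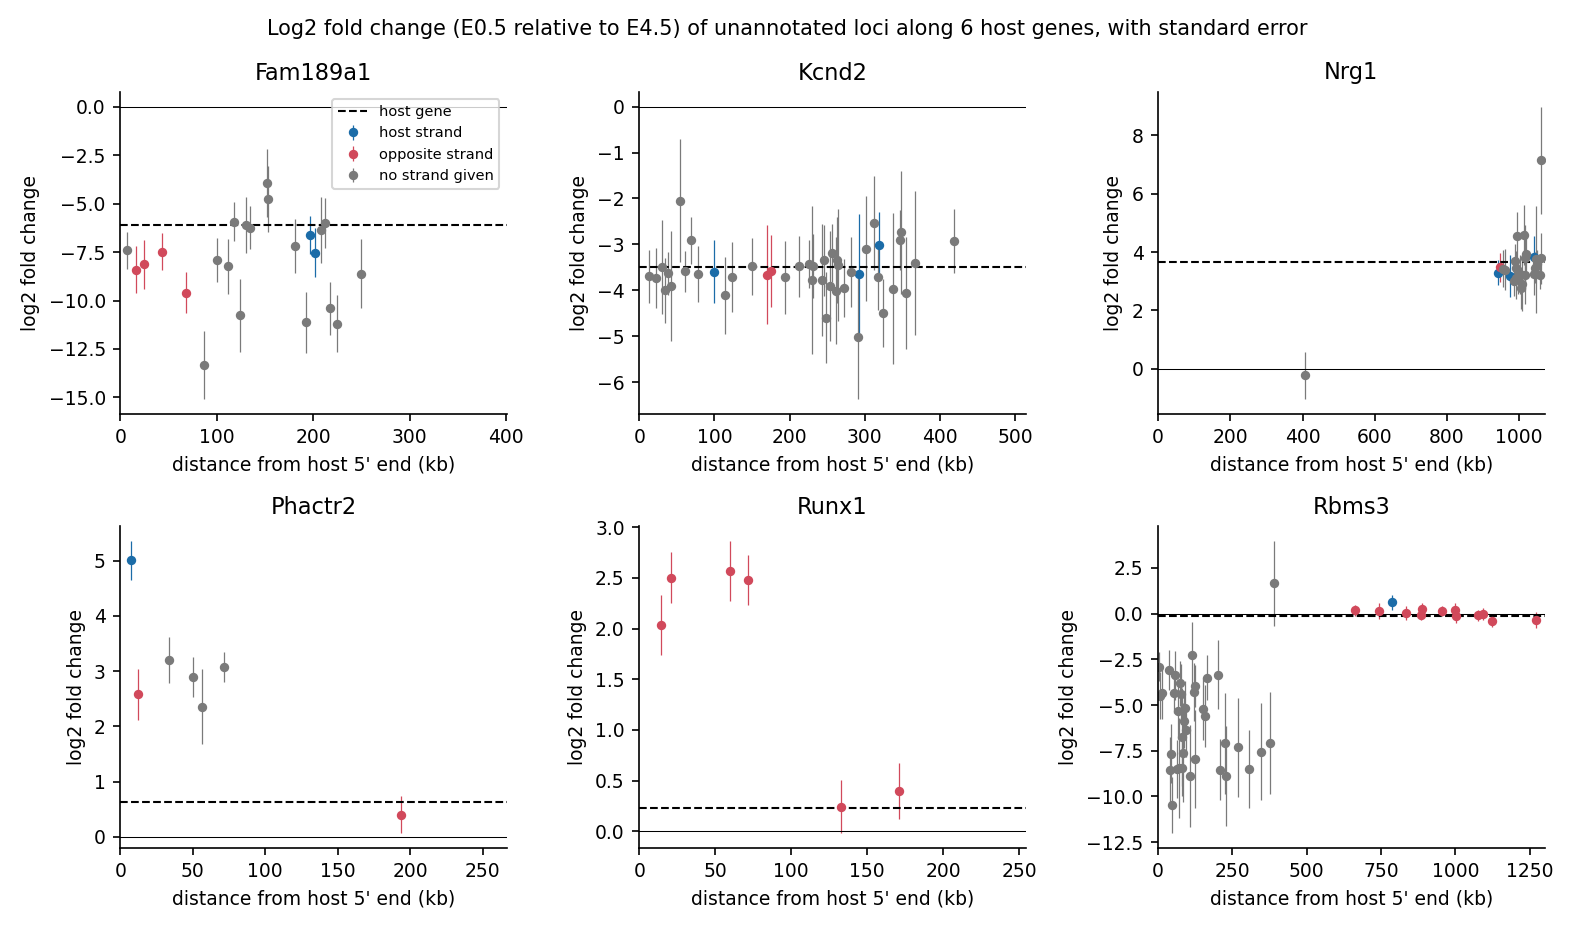
Log2 fold change (E0.5 relative to E4.5, with standard error) of each tested locus by its distance from the 5′ end of the host in kb, coloured by strand, with the host's own value dashed, for 6 host genes chosen after their values were seen. In Fam189a1, Kcnd2 and Nrg1 the loci lie on the same side of 0 as the host, apart from 1 locus of Nrg1 at -0.22; in Phactr2, Runx1 and Rbms3 the loci near the 5′ end lie away from it and the farther loci lie near it.

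In Nrg1, Pmepa1, Slc24a3, Alcam, Macc1, Grik4 and Egln1, the row and the called loci all had higher values at E0.5. The 18 hosts with at least 3 loci past the adjusted p held 79 of the 147, and these hosts were picked by their values. Nrg1 encodes neuregulin, a ligand of ERBB receptors, and 25 of its 27 tested loci were called higher at E0.5, 7 by adjusted p. Together they counted 10589, 12055 and 11607 at E0.5 and 790, 2298 and 602 at E4.5, a wide gap. Their median was 3.43 and the Nrg1 row had 3.64. The loci lay near the 3′ end of the row with 1 exception, which lay 407 kb from the 5′ end and had a fitted value of -0.22. Host-strand locus MSTRG.56556 counted 710, 660 and 647 against 53, 113 and 43 (3.30, standard error 0.42, edgeR adjusted p = 0.0276).

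Pmepa1, a gene induced by TGF-beta that dampens its signalling, had all 6 tested loci higher at E0.5 by adjusted p, with log2 fold changes from 2.04 to 2.74 beside 2.06 for the row. MSTRG.36666, on the host strand, counted 5239, 4088 and 3950 at E0.5 against 730, 737 and 543 at E4.5, and passed in 3 of 6 fits without 1 library. Slc24a3, a sodium and calcium exchanger that depends on potassium, had 16 of 17 loci called higher, with a median of 2.44 beside 2.23 for the row. Its loci summed to 155137, 87895 and 155885 at E0.5 and 29392, 34877 and 10437 at E4.5. Alcam, an adhesion molecule, had 5 of 5 called higher (median 1.52, row 1.41) and Macc1 had 7 of 7 (median 2.31, row 2.48). In Grik4, a kainate receptor subunit, 42 of 57 loci were called higher, all of them without a strand, with summed counts of 6142, 6041 and 11919 against 523, 566 and 1915. In Egln1, the prolyl hydroxylase that senses oxygen, MSTRG.58737 counted 4254, 4115 and 5748 against 1701, 1693 and 1560 (1.53, edgeR adjusted p = 0.0233), beside 1.73 for the row.

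Loci of Fam189a1 were nearly without counts at E0.5. Of its 23 tested loci, 22 were called lower at E0.5 and 8 passed the adjusted p, with a median log2 fold change of -7.53. Summed counts were 84, 132 and 137 at E0.5 and 32626, 33749 and 4147 at E4.5, so that E4.5 replicate 3 was far below its group but above every E0.5 library. The Fam189a1 row moved alike (21, 6 and 40 against 1815, 2364 and 324, with -6.10 and an adjusted p of 0.0469). The loci held more counts than the row, and the opposite-strand locus MSTRG.53513 alone counted 30, 23 and 17 against 5812, 6254 and 701 over 22000 bases (-7.49, standard error 0.96, edgeR adjusted p = 0.0276).

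Potassium channel genes were among the hosts of loci lower at E0.5. In Kcnd2, a channel of the transient outward current, 40 of 44 loci were called lower and 6 passed the adjusted p. Summed counts were 2527, 2079 and 8391 at E0.5 and 24880, 65638 and 62365 at E4.5, and the median of -3.62 stood beside -3.50 for the row. In Kcnb2, a delayed rectifier, 21 of 37 were called lower (median -2.70, row -2.20), and in Kcnq5, a channel of the M current, 6 of 6 (median -2.90, row -2.07). These 3 genes were picked from the hosts listed for their calls and are no test of channel genes.

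Csmd1, a membrane protein that restrains complement, had all 22 loci called lower at E0.5, with log2 fold changes from -3.50 to -2.10 beside -2.50 for the row. E4.5 replicate 3 was the highest here, with 51869 counts in the loci against 20105 and 21051 in the other E4.5 libraries and 2774 to 5595 at E0.5. Runx2, the bone transcription factor, had 26 of 32 loci called lower, and E4.5 replicate 3 held 94561 of their counts against 13895 and 14079. Ovary markers were highest in the same library, and their part in these values was not tested. Without both doubted libraries all 22 loci of Csmd1 and 19 of Runx2 were called, against 13.5% of all tested rows in that setting.

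Loci of 4 further genes were lower in all E0.5 libraries. In Aff3, a nuclear transcription regulator, the opposite-strand locus MSTRG.2797 spanned 22401 bases and counted 732, 902 and 1415 at E0.5 and 9803, 9674 and 6187 at E4.5. Its log2 fold change was -3.06 (standard error 0.33, edgeR adjusted p = 0.0198) beside -2.47 for Aff3. In Pcsk5, a proprotein convertase, host-strand locus MSTRG.30942 counted 35, 50 and 56 against 881, 997 and 237 (-3.88, edgeR adjusted p = 0.0439) beside -3.05. Arhgef28, a guanine nucleotide exchange factor, had 3 neighbouring loci at -1.96, -2.27 and -1.92, all past the adjusted p. Among these MSTRG.18312, on the opposite strand, counted 202, 143 and 202 at E0.5 and 927, 756 and 973 at E4.5. The Arhgef28 row had -0.80 (adjusted p = 0.0713), and the difference did not pass the ratio test (adjusted p = 0.403). Ankfn1 held a locus with 0 in all E0.5 libraries, MSTRG.12014, which counted 102, 58 and 66 at E4.5, so that the fold below E4.5 is at least 74.5.

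Loci in Ccl28, Rnf128 and Egfl6, which were named for their calls, were higher at E0.5. Epithelial markers (Epcam, Krt8, Krt18, Krt19 and Cdh1) were higher there too, their sum being 240.9, 215.4 and 254.6 FPKM against 99.5, 149.7 and 72.2 FPKM, and 4 of the 5 did not overlap between the days; their part in the values of these loci was not tested. In Ccl28, a chemokine of mucosal epithelia, MSTRG.18738 counted 840, 1233 and 1304 at E0.5 and 34, 14 and 58 at E4.5 (5.03, standard error 0.57, edgeR adjusted p = 0.0233; Ccl28 4.49). In Rnf128, a ubiquitin ligase, MSTRG.1508 counted 3113, 2746 and 3171 against 347, 466 and 466, at 8.70 ± 0.0889 and 1.23 ± 0.225 FPKM (SD, n = 3). Its log2 fold change was 2.84 (standard error 0.19, edgeR adjusted p = 0.00636) beside 2.28 for Rnf128. In Egfl6, a secreted matrix protein, the strandless locus MSTRG.1940 counted 543, 392 and 600 against 19, 16 and 11 (5.05, edgeR adjusted p = 0.00749). The Egfl6 row was less even, with 326, 493 and 922 against 4, 21 and 306, and E4.5 replicate 3 lay just under the lowest E0.5 library. Its log2 fold change was 2.43 (edgeR adjusted p = 0.390), and 5.54 without that library (edgeR adjusted p = 0.0127).

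**Figure D4:**
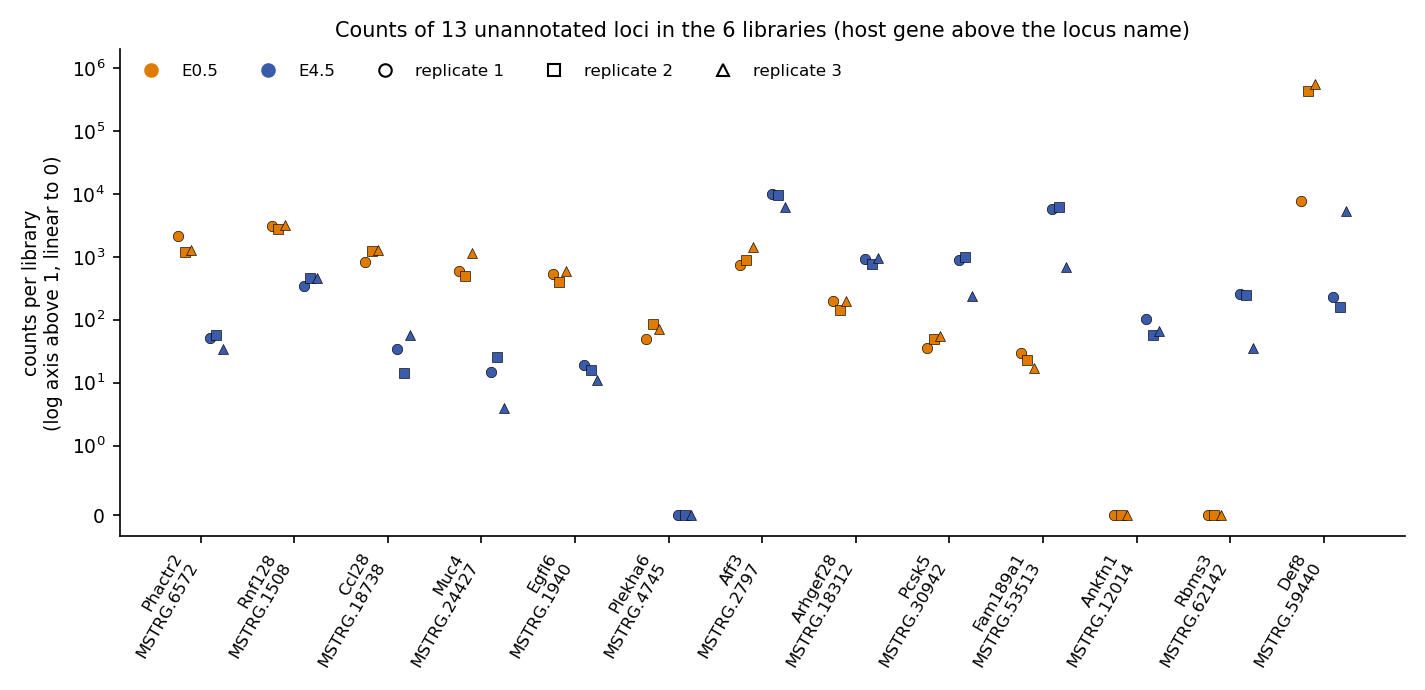
Counts of 13 named loci in each of the 6 libraries (vertical axis, logarithmic above 1 and linear down to 0; orange E0.5, blue E4.5; marker shape gives the replicate). The days do not overlap in any of the 13, which were picked for that or after their values were seen (25.2% of all tested rows do not overlap); E4.5 replicate 3 lies below its group in Fam189a1, Pcsk5 and Rbms3, and E0.5 replicate 1 lies below its group in Def8.

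Gene lists gave a view of the loci by the role of their hosts. Among 18 estrogen-induced genes, 6 held a locus, and 6 of the 7 tested loci were called (85.7%, against 12.2% of all tested rows), 5 higher and 1 lower at E0.5, with a median of 4.68 (-0.01 over all rows). All 6 were also called without both doubted libraries. The epithelial markers given above moved the same way as the 5, and their part was not tested. The rises were in Muc4, a membrane mucin, where MSTRG.24427 counted 591, 500 and 1147 against 15, 26 and 4 (5.62, edgeR adjusted p = 0.0276; Muc4 5.95) and MSTRG.24428 counted 83, 120 and 243 against 9, 8 and 0. In C3, a complement component, MSTRG.27557 counted 37, 58 and 115 at E0.5 and 0 at E4.5, at least 70.8-fold higher. In Padi1, which converts arginine to citrulline in proteins, MSTRG.43503 counted 506, 545 and 1572 against 91, 167 and 37. The locus in Sprr2b, MSTRG.38605, counted 148, 830 and 117 against 0, but Sprr2b belongs to a family of near-identical genes, which leaves its reads uncertain. Wnt7b, a ligand of the Wnt pathway, went the other way: MSTRG.23140 counted 168, 47 and 133 at E0.5 and 901, 792 and 128 at E4.5, where replicate 3 overlapped E0.5 (-2.42; Wnt7b -2.62).

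Progesterone-induced genes, 6 of 18 with a locus, had 6 of 19 tested loci called (31.6%, against 12.2% of all tested rows, 5.82% lower), all lower at E0.5 and none by adjusted p (median -0.96). Without both doubted libraries 3 of the 6 calls were lost, those of MSTRG.1534 and MSTRG.1535 in Tsc22d3 and of MSTRG.26446 in Fkbp5, and 3 other loci were called. The log2 fold changes of the lost calls kept their sign, at -2.0 for MSTRG.1534 (-2.12 with all libraries), -0.90 for MSTRG.1535 (-1.08) and -2.0 for MSTRG.26446 (-3.40). Il13ra2, a decoy receptor of an interleukin, was at 0 in all E0.5 libraries, as were both of its called loci. MSTRG.1607 counted 542, 792 and 68 at E4.5 and MSTRG.1608 counted 226, 309 and 18, with folds below E4.5 of at least 462 and 182.3. The row counted 4605, 5508 and 518, and with locus and host both at 0 their ratio at E0.5 rests on the added counts, also for MSTRG.1608, which passed the ratio test. In Tsc22d3, a glucocorticoid and progesterone responsive factor, 3 loci were called lower, and MSTRG.1531 counted 37, 52 and 45 against 81, 191 and 190. Fkbp5, a cochaperone of steroid receptors, held MSTRG.26446 with 0, 4 and 12 against 19, 46 and 110. The Fkbp5 row counted 820, 627 and 469 against 1877, 467 and 10101, which overlap. Locus and row were highest in E4.5 replicate 3, where ovary markers were also highest, and their part was not tested.

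Extracellular matrix genes had 3 of 11 tested loci called (27.3%, beside the same 12.2% and 5.82%), all lower at E0.5 (median -0.51) and 2 of them in 1 gene, and the 3 were also called without both doubted libraries. Endothelial markers (Pecam1, Cdh5 and Kdr) were lower at E0.5 too, their sum being 13.2, 15.4 and 13.5 FPKM against 40.3, 29.8 and 21.4 FPKM with Pecam1 overlapping. Stromal markers (Pdgfra, Dcn, Lum, Col1a1 and Vim) went the other way in sum: 265.2, 345.2 and 412.1 FPKM against 235.7, 225.6 and 141.7 FPKM. Of the 5 stromal markers 2 did not overlap between the days. The part of either set in these values was not tested. In Vcan, the proteoglycan versican, MSTRG.18100 counted 67, 102 and 33 against 748, 599 and 288, a log2 fold change of -2.96 beside -3.26 for Vcan. In Lama2, a laminin chain, MSTRG.6862 was at 0.596, 0.888 and 0.497 FPKM against 3.08, 3.92 and 2.32 FPKM (-2.22, edgeR adjusted p = 0.0438; Lama2 -1.28). MSTRG.6861, next to it, had -2.26.

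Smooth muscle genes had 74 tested loci in 15 of 22 genes. Of these loci 12 were called (16.2%, against 12.2% of all tested rows, 6.37% higher), all higher at E0.5 and none by adjusted p (median 0.20). The loci were in Dmd (dystrophin), Prkg1 (the kinase activated by cyclic GMP), Cacna1c (the L-type calcium channel) and Mylk (myosin light chain kinase). MSTRG.50948 in Cacna1c, on the opposite strand and matching the RefSeq lncRNA Gm50599, counted 58696, 44047 and 58799 at E0.5 and 32583, 26735 and 8560 at E4.5. Smooth muscle markers were lowest in E4.5 replicate 3 as well, and their part was not tested. Without both doubted libraries the log2 fold change of MSTRG.50948 went from 1.25 to 0.83, under the study's fold. Of the 12 calls 7 were lost there, among them those in Mylk and Cacna1c, 5 were kept (in Prkg1 and Dmd), and 4 other loci were called. The lost calls kept their sign. Their log2 fold changes were 0.93 in Mylk (1.01 with all libraries) and 0.90 for MSTRG.50955 in Cacna1c (1.25). Those in Dmd were 0.94 and 1.28 (1.10 and 1.51), and those in Prkg1 were 1.07 and 3.44 (1.19 and 4.23). Steroid receptors and their cofactors had 63 tested loci, of which 1 was called higher (in Nr3c2) and 3 lower (in Ncoa1, Foxo1 and Fkbp5), with a median of -0.03 (6.35% called). The calls in Nr3c2 and Fkbp5 were lost without both doubted libraries (unadjusted p = 0.0876 and 0.133, edgeR), although the log2 fold change in Nr3c2 stayed large (4.93 with all libraries, 3.79 without the 2).

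Most of the loci with the highest counts did not meet the study's criterion. In Slc8a1, the sodium and calcium exchanger, MSTRG.28053 counted 36076, 42508 and 48841 at E0.5 and 42894, 50760 and 17106 at E4.5. In Mecom, a zinc finger transcription factor, the opposite-strand locus MSTRG.37426 counted 60418, 71902 and 68371 against 53611, 68638 and 21501. E4.5 replicate 3 was the lowest library in both, and the groups overlapped. Strandless loci in Maml3 (MSTRG.37752), Mbnl1 (MSTRG.37956) and Prkg1 (MSTRG.31285) had log2 fold changes of 0.17, 0.34 and 0.17, with adjusted p-values from edgeR of 0.715, 0.419 and 0.908.

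A single locus exceeded all of these. MSTRG.59440, on the strand of Def8 (chromosome 8, from 123425802 to 123434532), counted 7595, 428432 and 566785 at E0.5 and 231, 158 and 5421 at E4.5, or 473 ± 403 and 2.73 ± 4.27 FPKM (SD, n = 3). The log2 fold change of 7.50 had an adjusted p of 0.156 with a standard error of 2.19, while Def8 had -0.33. Without both doubted libraries it was 11.35 with an adjusted p of 0.00143. It held enough counts to move the share of the host-strand class. Counting only the loci inside exactly 1 coding row, which leaves it out, changed the difference in the total share from 0.424 to -0.0717 percentage points.

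Among the PCR targets, Rpl24, a ribosomal protein, held 1 locus, and Ankrd37, Mmp11 and Lama1 held none. MSTRG.24928, opposite to the merged row of Rpl24, counted 359, 295 and 393 at E0.5 and 465, 562 and 450 at E4.5. The groups did not overlap, but the log2 fold change of -0.48 was under the study's fold (edgeR adjusted p = 0.317).

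RefSeq named few of the loci. With a reciprocal overlap of at least 50%, 160 of 22436 loci matched a RefSeq gene of GRCm38.p6: 79 lncRNAs, 70 protein-coding genes, 10 pseudogenes and 1 RNase P RNA. In Noxa1, an activator of NADPH oxidase, MSTRG.32770 matched the lncRNA Gm39770 and counted 514, 401 and 262 at E0.5 against 0, 3 and 4 at E4.5 (7.36, standard error 0.85, edgeR adjusted p = 0.0233; Noxa1 4.13). In Jazf1, a zinc finger cofactor, MSTRG.49537 matched the lncRNA Gm33219 with a log2 fold change of -2.79 (standard error 0.82, edgeR adjusted p = 0.159). In Egfr, the receptor of epidermal growth factor, MSTRG.9684 matched Gm39584 and had -0.77 (edgeR adjusted p = 0.156).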

How the data were processed

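The authors trimmed reads with Cutadapt, aligned them to the mouse genome (the methods name Bowtie2 and Tophat2; the submitters' processing notes name Bowtie, HISAT2 2.0 and StringTie 1.3.0), assembled transcripts with StringTie and estimated levels with Ballgown. The FPKM values and the whole-number counts per row were deposited by the authors in 1 table for E0.5 and E4.5; how counts were assigned is not given in the sources used here. The table holds 0.0001 FPKM in place of 0, which was set back to 0. Notes name the builds mm8 and mm10, and 19270 of 19275 coding rows with a RefSeq name overlap that gene in GRCm38.p6. Replicates are separate mice.

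Rows that averaged 0.1 FPKM or more over the 6 libraries were fitted together (59732 rows) with edgeR 4.0.16 (TMM, quasi-likelihood F-test) in R 4.3.3, with Benjamini-Hochberg adjustment over all of them. Log2 ratios of locus to host (0.5 counts added, both with a mean of at least 10 counts) were tested with limma 3.58.1. Shares used exact permutation tests (SciPy 1.17.1). Tests were checked on simulated data. Length was recovered from counts and FPKM, scaled per library on strandless rows with their span taken as their length. Alternatives were other scalings, filters and pseudocounts, DESeq2 1.42.0, a replicate block, other definitions of inside and each library left out. Leaving out both doubted libraries was chosen after seeing the data.

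Named loci were the 3 largest adjusted changes per strand class and direction with at least 1 FPKM and no overlap, the 3 with most counts per class, the 3 largest ratio changes per direction with 50 counts, the top locus of the 3 fullest hosts, up to 3 called per gene list and those in the study's PCR genes. The class without a strand was added to this rule, and further loci and the hosts were named, after values were seen. Loci of 2 hosts that the rule picks are not reported here. Loci, lists and tests were chosen with earlier results of these data known. The planned match to the table of E15.5 and E18.5 could not be made, because that table gives no positions.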

Additional observations from a re-analysis of the deposited data

How the results depend on the processing

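The number of loci called by the study's criterion stayed within 1.5 times of 2552 in every alternative except limma on log2(FPKM + 1), which gave 1130, and was 2114 to 3099 with 1 library left out. The adjusted calls were less stable: 147 became 1813 with DESeq2, 607 without both doubted libraries, 315 with a mean of at least 1 FPKM, 230 with limma on log2(FPKM + 0.1), and 0 to 1057 with 1 library left out (2433 loci at an unadjusted p under 0.05 where edgeR gave 0). The cause was not tested. With the replicate number as a block, edgeR gave 2125 loci by the study's criterion, 0 by adjusted p and 2534 at an unadjusted p under 0.05; same-numbered libraries correlated at -0.07, 0.01 and -0.08 in their deviations over the loci, so the numbers were not taken as a pairing. The 11 ratio pairs became 2 with 5 counts added, 5 with at least 50 counts, 0 without both doubted libraries, 0 with the block (1553 at an unadjusted p under 0.05) and 0 to 19 with 1 library left out. The share of counts differed by 0.01825 to 0.812 percentage points with 1 library left out. Of 55 named loci, 26 passed the adjusted p, and each of the 26 kept its direction in all 6 fits without 1 library. Each passed the adjusted p of edgeR in only 1 to 5 of these 6 fits. Reversals were among loci near 0: MSTRG.19110 (0.01) had -0.19 without both doubted libraries, -0.0192, -0.0172 and -0.00758 by limma at pseudocounts of 0.01, 0.1 and 1, -0.00946 with the block, and -0.15 to 0.18 with 1 library left out. Without both doubted libraries MSTRG.28052, MSTRG.31285 and MSTRG.37752 had -0.0708, -0.327 and -0.0408. With 1 library left out MSTRG.28052, MSTRG.28053 and MSTRG.31285 ran from -0.21 to 0.41, -0.13 to 0.51 and -0.29 to 0.49. The match to the labor stage, with its alternatives, was not run. Of 3583 loci with a mean under 20 counts, none passed the adjusted p of edgeR, and 304 met the study's criterion.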

Other observations

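Unannotated rows were also assembled at E15.5 and E18.5, in a separate table of 40787 rows without positions, where 7198 rows had no Ensembl transcript and 3700 of these carried the name of a host described above. Names cannot place a row inside a gene, so the values are only set side by side. Fam189a1, with 23 loci at early pregnancy, had no unannotated row by its name there, and its annotated row was between 0.0338 and 0.175 FPKM in the 6 libraries. Grik4 (57 loci), Rcan2 (50), Cdk14 (52) and Kcnb2 (37) likewise had none by name. Csmd1 had 47 unannotated rows against 22 loci at early pregnancy, Auts2 had 40 against 12, and Kcnd2 had 25 against 44. The annotated row of Nrg1 was at 1.12, 1.44 and 2.19 FPKM at E15.5 and at 8.03, 6.22 and 2.78 FPKM at E18.5. These values do not overlap, and neither do those of the annotated rows of Pmepa1, Macc1, Csmd1 and Adamtsl1. The share of rows without overlap in that table was not computed.

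Among loci with large counts that did not separate by day, MSTRG.22286, opposite to Ext1 (a polymerase of heparan sulfate), counted 17038, 7708 and 5926 at E0.5 and 49959, 1834 and 121019 at E4.5. The highest value was in E4.5 replicate 3, where ovary markers were also highest, and their part in it was not tested. The Naip row merges the inflammasome receptors of a cluster of near-identical genes, and its host-strand locus MSTRG.18389 counted 871, 570 and 491 at E0.5 and 45, 48 and 15 at E4.5 (4.17, edgeR adjusted p = 0.0276), with reads that may be split among the copies. In Adamtsl1, which held 119 tested loci, 35 were called higher at E0.5 (median 2.21, row 1.10). In Trhde, 23 of 65 were called higher (median 2.30, row 2.27). Without both doubted libraries 20 and 39 were called, against 13.5% of all tested rows in that setting.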
